A study of Homo sapiens with 26 samples.

Results

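The mitochondrial protein genes MT-ND1 to MT-ND6, MT-CYB and MT-CO1 to MT-CO3, were followed through every library of a proximity labeling study in HEK293T cells, a human embryonic kidney line. They are 10 of the 13 protein genes, and of all 37 genes, of the mitochondrial genome, were chosen by name, and are called the members here. The ribosome profiling files list them among 57770 entries of a single gene and the RNA-seq files among 60663 genes. The study biotinylated ribosomes next to a chosen membrane with a light-gated biotin ligase, LOV-BirA, and pulled them down with streptavidin. Ribosome footprints or whole transcripts were then sequenced beside the total input of the same lysate. The tag that accepts biotin, the Avi tag, sits on RPL29, a protein of the cytosolic large ribosomal subunit, and was knocked in at the endogenous locus. The members are translated inside mitochondria by mitochondrial ribosomes, which hold no RPL29, so their footprints in a pulldown measure background.

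Ribosome profiling covered cells with LOV-BirA at the endoplasmic reticulum (ER, fused to Sec61β and driven by the SFFV promoter), at the outer mitochondrial membrane (OMM, fused to the transmembrane domain of OMP25) and in the cytosol. The last 2 constructs were driven by the EF1α promoter. Each line was a polyclonal lentiviral population, was treated with cycloheximide (CHX), a blocker of elongation, before labeling, and gave 2 lysates, so that there were 6 total inputs and 6 pulldowns. RNA-seq covered the OMM line only, in wild-type cells carrying a negative control gRNA, AKAP1 null cells and LARP4 null cells with 2 replicates each, and in cells without CHX with 1 replicate. Each null genotype was 1 monoclonal line, and its CHX treatment is taken from the general protocol. The titles of the wild-type samples do not state CHX either, and those of the samples without CHX name no genotype or gRNA. The study calls its replicates of OMM enrichment biological, but no label says that replicates were separate cultures. The p-values therefore measure the spread between these samples, which may be technical.

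Human mitochondria keep a small circular genome whose protein genes all encode hydrophobic core subunits of oxidative phosphorylation. Their messages are made and read in the matrix, while all other subunits of the same complexes are encoded in the nucleus, translated on cytosolic ribosomes and imported. Fragments of the mitochondrial genome have also been copied into the nuclear chromosomes, where they persist as pseudogenes, and short reads cannot always be assigned to 1 of the copies.

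The libraries held between 1025114 and 19539527 footprints in coding sequences, both extremes being pulldowns, and the RNA-seq libraries between 38347615 and 100840544 counts. The OMM pulldowns were the shallowest. VIM, KRT8, KRT18, NEFM, NEFL and PAX2, all known to be expressed in this line, were detected in every total input, while HBB and ALB had no footprint there and PTPRC and CD3E at most 0.196 RPM, that is, footprints per 1000000 footprints in coding sequences. AKAP1 fell from 115 and 119 CPM, counts per 1000000 counts, in the wild-type total inputs to 32.2 and 20.3 in AKAP1 null cells, and LARP4 from 225 and 231 to 79.3 and 74.0 in LARP4 null cells.

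The nuclear copies decided where a footprint of a member could be counted at all. Positions whose 28 nt sequence recurs elsewhere in the genome with at most 1 mismatch were masked by the authors, which left 3304 of the 10210 nt of the members, or 32.4%. MT-ND3 kept 267 of 346 nt (77.2%) and MT-CYB 721 of 1141 nt (63.2%), whereas MT-CO1 kept 31 of 1542 nt (2.01%) and MT-CO2 35 of 684 nt (5.12%). A mask rebuilt from the genome gave the deposited number of positions for 9 of the 10 members, and 274 against 267 for MT-ND3. Its offset was chosen for the smallest difference from the deposited numbers, so the match is no independent check.

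The sequences that follow come from the middle of the longest unmasked run of 6 members, on the coding strand of the hg38 mitochondrial chromosome. They are shown for the bases that set a countable window apart from its closest nuclear match. They do not measure how far the whole gene differs. Capitals mark the bases that differ from the closest 28 nt sequence in the nuclear genome. The windows lie at chrM:13764-13791 (MT-ND5), chrM:15734-15761 (MT-CYB), chrM:10266-10293 (MT-ND3), chrM:9927-9954 (MT-CO3), chrM:6361-6388 (MT-CO1) and chrM:8146-8173 (MT-CO2), each in the coding sequence of its gene.
MT-ND5: ccCcttccaAAcaAcaAtccccctctac
MT-CYB: gcagAcctcctcaTtCtaacctgaAtCg
MT-ND3: GcCctccttttacccCtAccatgagccc
MT-CO3: tactgGcaTtttgtagatgtGgtttgac
MT-CO1: caggtGtctcctctatcttaggGgccat
MT-CO2: acgaccGggggtatactacggTcaatgc
The windows of MT-ND5 and MT-CYB differed at 5 bases from their closest nuclear match, on chromosomes 20 and 7, and that of MT-ND3 at 4 bases from chr5:134928503-134928530. The windows of MT-CO1 and MT-CO2 differed at 2 bases only, the fewest the mask allows, from chr1:631531-631558 and chr1:633317-633344. Both lie in a stretch of chromosome 1 that carries MTCO1P12, 98.7% identical to MT-CO1, and MTCO2P12, 98.2% identical to MT-CO2.

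**Figure D1:**
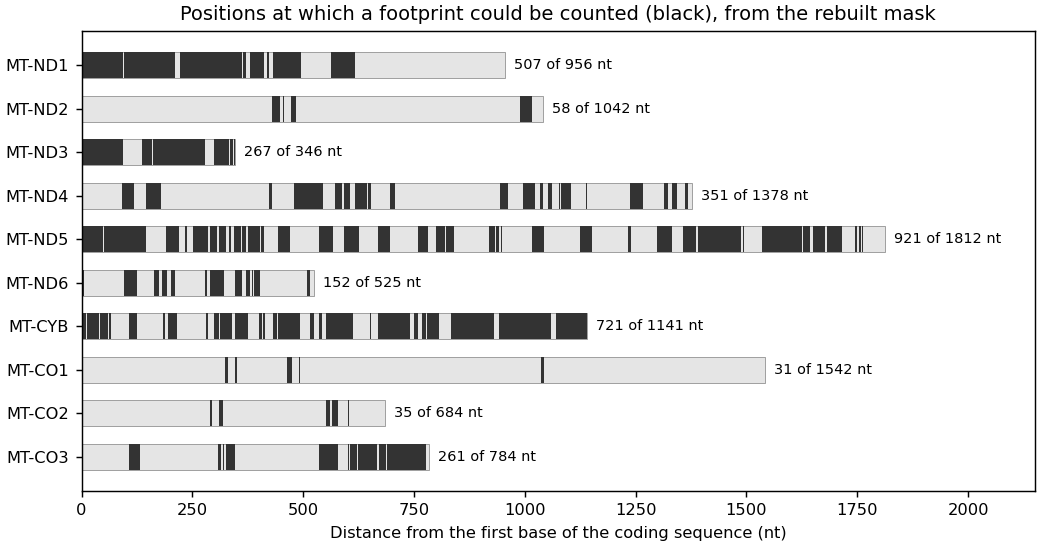
Coding sequences of the 10 members drawn to scale, with the distance from the first coding base in nt on the horizontal axis. Black marks positions at which a footprint could be counted and grey marks masked positions. MT-CO1 kept 31 of 1542 nt and MT-CYB 721 of 1141 nt.

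In the total inputs the members held from 339 to 1401 RPM. Each number of footprints given here is the deposited estimated count, rounded. The total inputs had 1316 and 506 RPM in the ER line, 339 and 781 in the OMM line and 1401 and 574 in the cytosol line. The replicates of a line were spread wider than the means of the lines. In the pulldowns the same genes held 26.0 and 18.8 RPM at the ER, 31.2 and 54.7 at the OMM and 25.7 and 26.4 in the cytosol. All 6 pulldowns lay under all 6 total inputs. In bulk lysates, fewer cells making a message and less message per cell cannot be told apart.

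**Figure D2:**
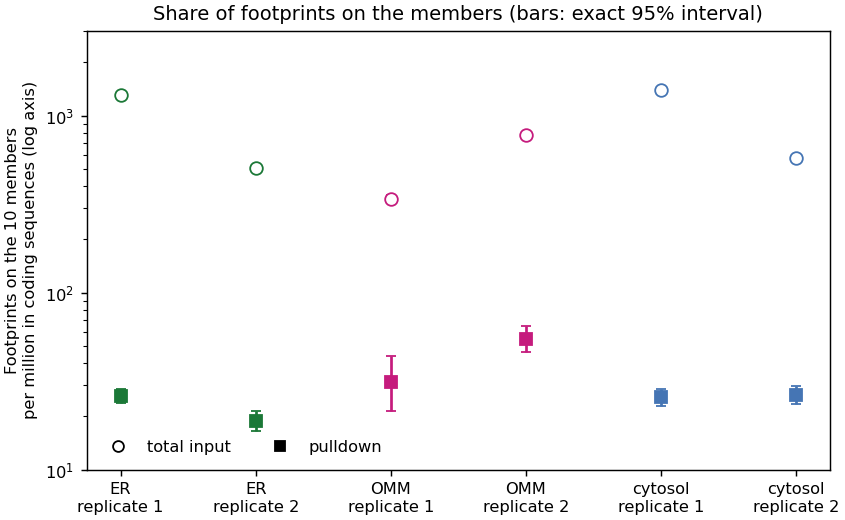
Footprints on the 10 members as RPM, on a log axis, for each lysate. Open circles are total inputs, filled squares pulldowns, and bars are exact 95% intervals of counting. Total inputs sit between 339 and 1401 RPM and pulldowns between 18.8 and 54.7.

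The share in the pulldown was therefore a few percent of the share in the total input. At the ER it was 1.98% in replicate 1 (508 against 16816 footprints, exact 95% interval 1.81% to 2.16%) and 3.72% in replicate 2 (222 against 3267, 3.23% to 4.26%). In the cytosol it was 1.83% (317 against 22172, 1.64% to 2.05%) and 4.60% (288 against 2575, 4.06% to 5.19%). At the OMM it was 9.21% (32 against 1727, 6.27% to 13.04%) and 7.01% (137 against 4260, 5.86% to 8.30%). Both OMM lysates lay above the other four. The intervals cover counting error only. The means were 2.85% ± 1.23 at the ER, 3.22% ± 1.96 in the cytosol and 8.11% ± 1.55 at the OMM (SD, n = 2 each), or −5.20 ± 0.65, −5.11 ± 0.94 and −3.64 ± 0.28 as log2. All 13 protein genes together gave 1.94% and 3.69%, 1.82% and 4.65%, and 8.92% and 7.17% for the same lysates.

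The replicates of a location differed by more than counting error at the ER and in the cytosol. There the deeper total inputs, with 16816 and 22172 footprints on the members, went with the lower percentages. The pulldowns of these 4 lysates differed less, between 18.8 and 26.4 RPM, than their total inputs, between 506 and 1401. ER replicate 2 and OMM replicate 2 carry the same pool name, which the other lysates do not. Between those 2 lysates the log2 of the members' share was 0.91 higher at the OMM, against 1.57 for the difference of the means. The part of the sequencing pool in this difference was not tested.

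Complex I, the NADH dehydrogenase that passes electrons into the respiratory chain, has 6 of the members among its membrane subunits. MT-ND5, one of its proton-pumping subunits and the longest member, had 4245 and 748 footprints in the ER total inputs, 393 and 1043 in those of the OMM line and 5857 and 613 in those of the cytosol line. The pulldowns held 70 and 38, 3 and 25, and 45 and 44. The log2 of pulldown over total input, each in RPM, was −6.53 and −5.18 at the ER, −4.85 and −4.25 at the OMM and −6.68 and −5.08 in the cytosol. Both OMM lysates were highest, but OMM replicate 1 rests on 3 footprints.

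MT-ND1, at the junction of the membrane arm and the matrix arm, had 1329 and 154 footprints in the ER total inputs, 152 and 284 in the OMM line and 1621 and 193 in the cytosol line. Its pulldowns held 37 and 12, 0 and 10, and 19 and 20. The log2 was −5.79 and −4.57 at the ER, −3.71 in OMM replicate 2, and −6.06 and −4.57 in the cytosol. No footprint was counted in OMM replicate 1, where 3 footprints would have been 9.79% of the share in the total input and the exact 95% upper limit is 12.2%.

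MT-ND3, a small subunit with the largest unmasked share, had 1195 and 213, 63 and 330, and 1827 and 169 footprints in the total inputs of the ER, OMM and cytosol lines. The pulldowns held 18 and 9, 0 and 5, and 4 and 11. Its log2 of −8.48 in cytosol replicate 1 was the lowest of any member in any lysate with a footprint. The others were −6.67 and −5.43 at the ER, −4.92 in OMM replicate 2 and −5.23 in cytosol replicate 2, and for the 0 of OMM replicate 1 the level of 3 footprints is 23.8% and the exact 95% upper limit 29.95%.

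MT-ND4, another proton-pumping subunit, had 787 and 104, 43 and 123, and 1020 and 117 footprints in the total inputs and 39 and 3, 1 and 5, and 17 and 9 in the pulldowns. The log2 was −4.95 and −5.98 at the ER, −3.11 and −3.49 at the OMM and −5.57 and −5.01 in the cytosol. It was one of the members whose ER replicate 2 lay under replicate 1.

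MT-ND6, the only member read from the other strand, had from 18 to 340 footprints in a total input and at most 8 in a pulldown. Its log2 was −5.95 and −6.04 at the ER and −6.35 and −4.05 in the cytosol. At the OMM it was −2.86 and −3.90, where replicate 1 rests on an estimated count that rounds to 0. MT-ND2, also a proton-pumping subunit, had from 13 to 198 footprints in a total input and from 0 to 6 in a pulldown, too few to order its locations.

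MT-CYB, the cytochrome b of complex III, which hands electrons to cytochrome c, was the member with most footprints. Its total inputs held 5038 and 1103 in the ER line, 573 and 1370 in the OMM line and 7011 and 914 in the cytosol line. The pulldowns held 166 and 67, 15 and 42, and 108 and 97. The log2 was −5.53 and −4.91 at the ER, −2.94 and −3.91 at the OMM and −5.67 and −4.52 in the cytosol. Both OMM lysates stood above the other four.

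Complex IV, cytochrome c oxidase, reduces oxygen to water at copper and heme centers carried by MT-CO1 and MT-CO2. MT-CO3, the third of its core subunits, had 2807 and 606, 368 and 788, and 3385 and 364 footprints in the total inputs, and 72 and 36, 10 and 35, and 59 and 67 in the pulldowns. The log2 was −5.90 and −4.93 at the ER, −2.88 and −3.39 at the OMM and −5.48 and −3.72 in the cytosol. Its OMM values were the highest again, with cytosol replicate 2 next.

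MT-CO1, the catalytic subunit, varied least across the lysates. It had 700 and 215 footprints in the ER total inputs, 79 and 179 in the OMM line and 655 and 95 in the cytosol line, against 70 and 35, 1 and 8, and 40 and 19 in the pulldowns. The log2 was −3.94 and −3.47 at the ER, −3.64 and −3.40 at the OMM and −3.68 and −3.59 in the cytosol, so that the locations overlapped. As a percentage of the total input, MT-CO1 ranged from 6.52% to 9.49% over all 6 lysates.

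MT-CO2, which binds the incoming cytochrome c, had from 21 to 272 footprints in a total input and from 1 to 25 in a pulldown. Its log2 was −3.70 and −1.96 at the ER, −2.38 and −2.23 at the OMM and −3.37 and −3.46 in the cytosol. Over the 6 lysates its median was 14.5% of the total input, the highest of the members, and the median of MT-ND3 was 1.65%, the lowest.

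**Figure D3:**
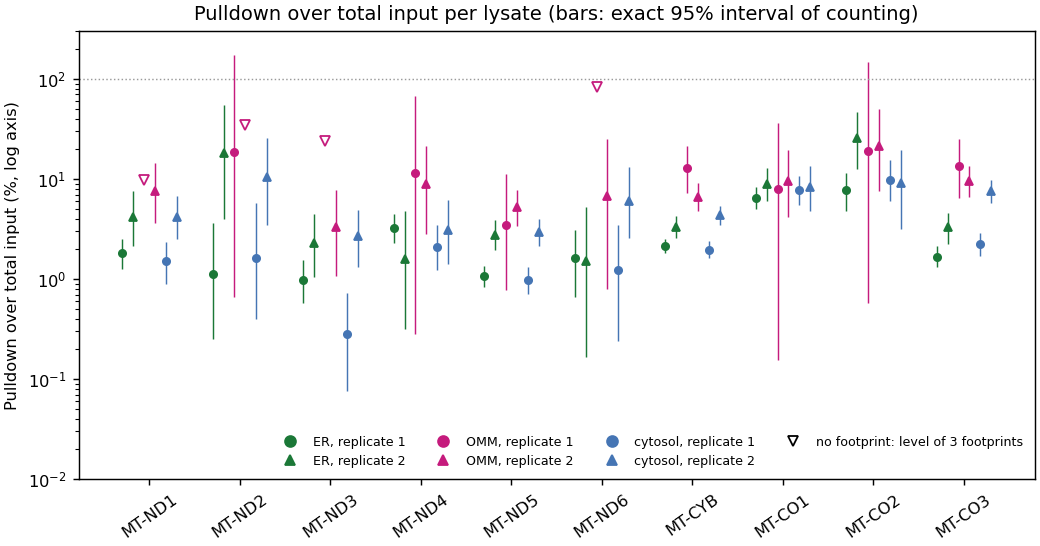
Pulldown over total input for each member, each in RPM, in percent on a log axis. Colors are the locations, circles replicate 1, triangles replicate 2, and bars exact 95% intervals of counting. Open triangles mark 0 footprints in the pulldown, drawn at the level 3 footprints would give, and the dotted line is equality at 100%. MT-CO1 lies between 6.52% and 9.49% in all 6 lysates.

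MT-CO1 and MT-CO2, with few unmasked positions, had the highest medians over the 6 lysates, 8.18% and 14.5%. At the OMM, MT-CO1 with a mean of 8.76% lay below 5 members other than MT-CO2, up to MT-CO3 with 11.6%. Pooled, MT-CO1 and MT-CO2 gave 6.80% at the ER in replicate 1. There MT-ND3, with the largest unmasked share, and MT-ND5, with the most unmasked positions, gave 1.06%. In replicate 2 the values were 11.2% and 2.66%. At the OMM they were 10.3% and 2.99% in replicate 1, which rest on 2 and 3 pulldown footprints, and 12.4% and 4.78% in replicate 2. In the cytosol they were 8.34% and 0.813%, and 8.52% and 2.89%. These pairs were picked after their values were seen. Across the 10 members Spearman's rho of unmasked positions with the mean percentage was −0.47 at the ER, −0.35 at the OMM and −0.81 in the cytosol, which describes points that share libraries, depth and 1 genome. When all members were split, MT-ND2, MT-CO1 and MT-CO2, with under 64 unmasked positions, gave 5.96% and 11.6% at the ER, 11.6% and 11.5% at the OMM and 7.16% and 8.82% in the cytosol. The other 7 gave 1.70% and 3.04%, 9.03% and 6.72%, and 1.55% and 4.34%. The exact 95% intervals of the 2 sets overlapped in both OMM lysates.

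Levels in the total input, compared per length as RPKM over the unmasked positions, were in contrast ordered alike in all lines. MT-CO1 had 466 ± 176 RPKM (SD, n = 6 total inputs), MT-CO3 229 ± 99.8, MT-CYB 158 ± 71.5, MT-CO2 127 ± 65.8 and MT-ND5 95.7 ± 52.5. Each of these stood above the next in 6 of 6 total inputs, although only the step from MT-CO1 to MT-CO3 exceeded the larger SD of its pair. MT-ND3 followed with 94.99 ± 60.3, MT-ND1 with 50.4 ± 27.8, MT-ND2 with 48.2 ± 32.7, MT-ND6 with 41.0 ± 20.8 and MT-ND4 with 40.5 ± 27.5. Neighbors from MT-ND5 downward did not keep their order in every total input. By these means the 4 members of complexes IV and III stood above the 6 of complex I, with a step from MT-CO2 to MT-ND5 under the SD of either. The levels of MT-CO1 and MT-CO2 rest on 31 and 35 positions.

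In the fit over all genes with edgeR, a gene entered with 64 footprints in both total inputs of a location. At the ER 8 of the members did so and all 8 were lower in the pulldown at an adjusted p under 0.05, where 72.0% of the 7381 genes tested were lower and 19.8% higher. The fitted log2 was −6.28 (SE 0.32) for MT-ND3, −6.05 (SE 0.26) for MT-ND5 and −5.99 (SE 0.37) for MT-ND6. The others were MT-CO3 at −5.55, MT-ND1 at −5.47, MT-CYB at −5.30, MT-ND4 at −5.08 and MT-CO1 at −3.75, and edgeR's adjusted p was at most 6.98e-11 for any. They were the 8 lowest of all 7381 genes, whose median was −0.68.

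At the OMM 5 members entered and were all lower, against 46.0% of 6728 genes and a median of −0.38. They were MT-ND5 at −4.33 (SE 0.36), MT-ND1 at −4.03 (SE 0.44), MT-CYB at −3.65 (SE 0.27), MT-CO1 at −3.45 (SE 0.36) and MT-CO3 at −3.25 (SE 0.34), again the lowest of all genes tested. In the cytosol 7 entered and were all lower, against 5.96% of 7162 genes lower, 2.02% higher and a median of 0.022. MT-ND3 stood at −6.84, MT-ND5 at −5.98, MT-ND1 at −5.41, MT-ND4 at −5.34, MT-CYB at −5.14, MT-CO3 at −4.68 and MT-CO1 at −3.64. They took the ranks 1 to 6 and 8 from the lowest. Since the 64 footprints are asked of the total inputs, these counts leave out members with few footprints there, at the OMM MT-ND2, MT-ND3, MT-ND4, MT-ND6 and MT-CO2. With a minimum of 10 footprints all 10 members entered and were lower at each location. Of all genes, 6314 of 9987 were lower at the ER, 3335 of 9574 at the OMM and 522 of 9960 in the cytosol. MT-CO2 was lower by −3.13, −2.17 and −3.39 and MT-ND2 by −5.05, −3.53 and −4.49 at the ER, OMM and cytosol.

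Scaling changed the calls of other genes at the ER and OMM, and none of a member. With TMM, which centers the bulk of genes, the calls of lower and higher genes changed from 5317 and 1464 to 1874 and 2156 at the ER and from 3092 and 1142 to 1644 and 1737 at the OMM, and the medians from −0.68 to −0.034 and from −0.38 to −0.058. The members then ran from −5.63 to −3.10 at the ER, −4.01 to −2.93 at the OMM and −6.83 to −3.64 in the cytosol, and all that were tested were lower.

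**Figure D4:**
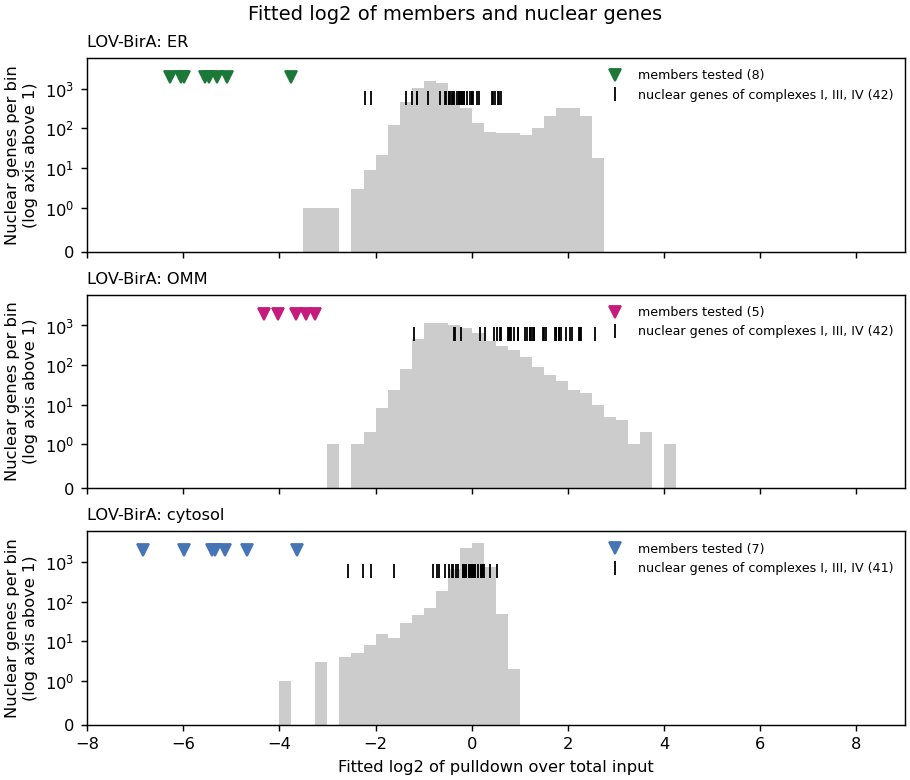
Fitted log2 of pulldown over total input at the 3 locations. Grey bars count the nuclear genes per bin of 0.25, on an axis that is logarithmic above 1, colored triangles are the members tested, and black ticks the nuclear genes of complexes I, III and IV. At the ER and OMM the members tested, 8 and 5 of the 10, lie below all nuclear genes tested, with medians of all genes at −0.68 and −0.38.

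Few nuclear genes came near the members tested. MT-CO2, absent from these fits, stood at −3.13, −2.17 and −3.39 at the ER, OMM and cytosol with a minimum of 10 footprints. The lowest nuclear genes at the ER were RPL11, a ribosomal protein, at −3.42 and DDX3X, an RNA helicase, at −3.24. At the OMM they were the histone genes H2BC21 at −2.87 and H2BC12 at −2.48, and in the cytosol RPL11 at −3.76 and TARS1, the threonyl-tRNA synthetase, at −3.21. The median log2 RPKM ratio of the members left out those without a pulldown footprint. These were MT-ND1 and MT-ND3 in OMM replicate 1 and MT-ND2 in OMM replicate 2, which raised the median there. This median was set beside 6430 nuclear genes with 64 footprints in all 6 total inputs and some in every pulldown. At or under it lay 0 of them in 4 lysates, 6 in OMM replicate 1 and 1 in cytosol replicate 2. The genes whose 6 ratios were most like that median were RPL11, with a root mean square difference of 1.79 log2 units, DDX3X (1.96), H2BC21 (2.19), ATP6V1G1 (2.55) and IREB2 (2.63).

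Part of the members were depleted less at the OMM than elsewhere. For OMM minus ER, 5 members could be tested and 3 were higher at an adjusted p under 0.05, where 31.1% of 6675 genes were higher and 18.6% lower and the median was 0.28. MT-CO3 was higher by 2.30 (SE 0.53, edgeR adjusted p = 0.0015), MT-ND5 by 1.72 (SE 0.60, adjusted p = 0.0236) and MT-CYB by 1.65 (SE 0.40, adjusted p = 0.00234). MT-ND1 differed by 1.43 (SE 0.77, adjusted p = 0.131) and MT-CO1 by 0.30 (SE 0.53, adjusted p = 0.66), which did not pass. The 3 calls fell to 2 with TMM, 1 with DESeq2 and 0 in edgeR without the term that pairs pulldown and total input of a lysate. With TMM the split of all genes turned from 1239 lower and 2074 higher to 1512 and 949. Without OMM replicate 2 only 1 call was left.

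For OMM minus cytosol the same 5 members could be tested and 3 were higher, where 16.6% of 6465 genes were higher and 39.7% lower and the median was −0.36. MT-ND5 was higher by 1.66 (SE 0.60, adjusted p = 0.0262), MT-CYB by 1.49 (SE 0.40, adjusted p = 0.0046) and MT-CO3 by 1.43 (SE 0.51, adjusted p = 0.0248) in edgeR. MT-ND1 differed by 1.37 (SE 0.77, adjusted p = 0.137) and MT-CO1 by 0.19 (SE 0.54, adjusted p = 0.776). All 3 calls stayed with TMM, which turned the split of all genes from 2569 lower and 1070 higher to 1346 and 1585. One was left with DESeq2, without OMM replicate 2 and without cytosol replicate 1, whose pulldown and total input carry different library names, 0 without OMM replicate 1 and 0 without the pairing term, while 4 were called without cytosol replicate 2. The comparisons share the OMM samples, so their likeness is no separate evidence.

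Between ER and cytosol 0 of 7 members passed in edgeR, where 62.6% of 6809 genes were lower at the ER and 19.6% higher, with 5672 genes at an unadjusted p under 0.05 and a median of −0.66. DESeq2 also called 0 of the 7. The fitted differences ran from −0.87 for MT-CO3 (SE 0.41, adjusted p = 0.0575) to 0.55 for MT-ND3. With TMM they ran from −0.21 to 1.20, and all genes split into 1373 lower and 1969 higher in place of 4260 and 1333. Without cytosol replicate 1, MT-CO3 stood at −1.85 (edgeR adjusted p = 4.13e-06) and was called, as were MT-CYB and MT-ND5.

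With every replicate kept, levels of the members in the total inputs did not separate the lines. In edgeR the fitted differences lay between −0.88 and −0.55 for the OMM line minus the ER line, between −0.90 and −0.36 for the OMM line minus the cytosol line and between −0.25 and 0.52 for the ER line minus the cytosol line. None passed, and neither edgeR nor DESeq2 called any gene, with 6, 255 and 257 genes at an unadjusted p under 0.05 in edgeR (0.0% called in each).

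The partners of the members from the nucleus went the other way at the OMM. Of 58 nuclear genes of complexes I, III and IV, 42 were tested there, and 36 were higher and 2 lower, against 17.0% of all genes higher. Their median was 1.21, and over all genes it was −0.38. In complex IV 9 of 9 were higher, among them COX6C at 2.56 (SE 0.09) and NDUFA4, a subunit of complex IV despite its name, at 2.22. The lowest were COX7A2L at 0.79 and COX7B at 1.30, which were higher too. All 9 were also higher with TMM and without either OMM replicate.

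In complex III 5 of 8 nuclear genes were higher, with UQCRQ at 2.27 and UQCRC1 at 1.82, while UQCRB at −0.36 and UQCRFS1, the Rieske iron-sulfur protein, at −0.23 (0.094 with TMM) did not pass. In complex I 22 of 25 were higher, with NDUFB1 at 2.26 and NDUFB9 at 2.09, and 2 were lower, NDUFS7 at −1.20 and NDUFS1 at −0.38, both iron-sulfur subunits, which with TMM stood at −0.88 and −0.056 and did not pass. At the ER 24 of 42 genes of the 3 complexes were lower and 5 higher, beside 72.0% and 19.8% of all genes, and with TMM, which turned all genes to 1874 lower and 2156 higher, 7 were lower and 25 higher. In the cytosol 11 of 41 were lower and 1 higher, beside 5.96% and 2.02% of all genes. The proteins that transcribe, process and translate the mitochondrial genome gave 14 higher and 1 lower of 29 at the OMM, beside 17.0% and 46.0% of all genes. The translation factors GFM2, at 3.67 (SE 0.13), and GUF1, at 3.45, were highest. The transcription termination factor MTERF1 was lower at −0.89 (−0.57 with TMM, without passing), and LRPPRC, which stabilizes mitochondrial messages, stood at −0.44 without passing.

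Within complex IV the 2 origins were on opposite sides of the OMM comparison. COX6C held a larger share of the OMM pulldown than of its total input, and MT-CO3 a smaller one, at 13.5% and 9.56% of that in the total input in the 2 lysates.

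In RNA-seq every member was listed at 0 counts in all 14 libraries, as were all 37 genes of the mitochondrial genome. Because footprints show that these messages were present in such cells, the zeros were not read as levels, no test of a member could be made, and the cause of the zeros was not tested. Reads were instead listed under nuclear copies, from which transcripts of the mitochondrial genome cannot be told apart. Of 15 such copies on a list chosen by name 12 were matched, and 4 had a mean of at least 64 counts. The other 8 had from 0 to 82 counts in a library.

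These 4 were MTATP6P1 (hg38 chr1:633696-634376, 98.5% identical to MT-ATP6), MTND2P28 (chr1:629640-630683, 98.4% identical to MT-ND2), MTCO1P12 (chr1:631074-632616, 98.7% identical to MT-CO1) and MTND4P12 (chr5:134926660-134928036, minus strand, 95.7% identical to MT-ND4). All are annotated as pseudogenes. MTATP6P1 had 2655 and 3058 counts in the wild-type total inputs and 164 and 103 in the pulldowns. It had 3374 and 1691 against 160 and 112 in AKAP1 null cells, and 2492 and 8321 against 169 and 476 in LARP4 null cells. Without CHX it had 2639 against 531.

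All 4 copies were lower in the pulldown in each genotype with CHX. In wild-type cells, where 45.6% of 13856 genes were lower, the fitted log2 was −4.80 (SE 0.27) for MTATP6P1, −4.72 (SE 0.51) for MTND2P28, −4.26 (SE 0.42) for MTCO1P12 and −3.55 (SE 0.40) for MTND4P12, all among the 13 lowest genes. In AKAP1 null cells, where 28.1% were lower and 13.9% higher, the values were −4.45, −3.57, −3.75 and −2.90 in the same order. In LARP4 null cells, where 30.0% were lower and 22.8% higher, they were −3.56, −2.79, −3.16 and −2.51. The largest edgeR adjusted p of these 12 was 0.0013. With TMM the wild-type split of all genes turned from 6324 lower and 2803 higher to 3847 and 4296, and the 4 copies lay between −4.51 and −3.26. In AKAP1 null cells it turned from 3892 and 1930 to 2865 and 2772.

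No difference between genotypes passed for these copies in edgeR. In AKAP1 null minus wild-type cells the 4 differences ran from 0.35 to 1.15 with adjusted p from 0.286 to 0.554, where 6.52% of 13856 genes were higher and 7.96% lower, a split of 903 and 1103 that became 285 and 1424 with TMM. In LARP4 null minus wild-type cells they ran from 1.05 to 1.93 with adjusted p from 0.295 to 0.318, and edgeR called 0 of 13856 genes, with 2270 at an unadjusted p under 0.05, while DESeq2 called 454 lower and 2 higher. DESeq2 called 1 of the 4 copies, MTATP6P1 at 1.02. LARP4 null replicate 2 decided these values: MTND2P28 stood at 5.46% of the total input in replicate 1 and 28.6% in replicate 2, MTND4P12 at 8.68% and 30.01%, MTCO1P12 at 5.62% and 18.3%, and MTATP6P1 at 5.60% and 11.99%. Without LARP4 null replicate 1 all 4 were called higher, together with 4517 of 13856 genes higher and 1142 lower, and the lone replicate is then assumed to vary like the other groups.

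Levels of the 4 copies in the total inputs, without the pulldown, differed by −0.77 to 0.27 in AKAP1 null minus wild-type cells, where edgeR called 0.0% of 13977 genes, with 489 at an unadjusted p under 0.05, and DESeq2 called 7 lower and 8 higher. They differed by 0.0072 to 0.27 in LARP4 null minus wild-type cells, where edgeR called 1 gene lower and 1 higher (0.00715% each). None of the 4 passed in either.

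In the single replicate without CHX, which allows no test, the copies were depleted less than in wild-type cells with CHX. MTND4P12 stood at 34.4% of the total input (exact 95% interval 28.8% to 40.8%), MTCO1P12 at 32.4%, MTATP6P1 at 29.4% and MTND2P28 at 26.2%. The 2 wild-type replicates with CHX ranged from 2.78% to 8.71% over the 4 copies. LARP4 null replicate 2, taken as treated with CHX, stood at 30.01% for MTND4P12 and 18.3% for MTCO1P12. There MTATP6P1 stood at 11.99% and MTND2P28 at 28.6%, above its value without CHX. Time of labeling differed with CHX in the general protocol. Genotype and gRNA may differ too, as the titles of the samples without CHX name neither. These cannot be told apart.

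**Figure D5:**
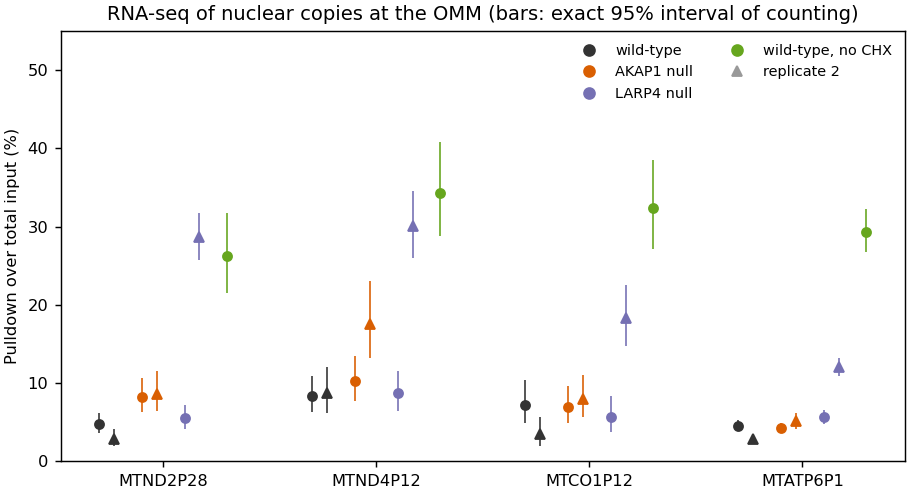
Pulldown over total input in percent, each in CPM, for 4 nuclear copies in RNA-seq of the OMM line. Colors are genotypes and treatment, circles replicate 1, triangles replicate 2, and bars exact 95% intervals of counting. Wild-type cells with CHX lie between 2.78% and 8.71%, and the replicate without CHX between 26.2% and 34.4%. The titles of the replicate without CHX name no genotype.

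The nuclear partners were again on the other side in wild-type cells, where 55 of 58 genes of complexes I, III and IV were higher in the pulldown, against 20.2% of all genes, with a median of 1.77. In AKAP1 null minus wild-type cells 42 of 58 were lower and 6 higher, beside 7.96% and 6.52% of all genes. The median was −1.33 over the list and 0.19 over all genes. All 12 nuclear genes of complex IV were lower there, with a median of −1.76. In LARP4 null minus wild-type cells the list had a median of −0.68 and 0 of 58 passed in edgeR (0.0% of all genes called). With DESeq2, which called 454 of 13856 genes lower and 2 higher, 41 of the list were lower.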

How the data were processed

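Libraries of ribosome profiling (12) and RNA-seq (14) of HEK293T cells were used, all labelled by location or genotype, arm and replicate. For footprints, the authors removed rRNA and tRNA reads with Bowtie, aligned the rest with TopHat to GRCh38 with 1 mismatch, kept unique alignments, and deposited estimated counts per region for footprints of 27 to 36 nt, a footprint being divided evenly over the positions left after trimming 13 nt from both ends, with repeated 28-mers masked. The authors also deposited RPKM, per length of unmasked region and scaled to the reads on annotated transcripts, used here for levels between genes. RNA-seq values are counts per gene deposited by the authors, from STAR alignments and featureCounts. Strand use was not given in the sources used here. The deposited values named FPKM were treated as a score and not used. Removal of rRNA and tRNA reads limits what the footprint files hold of such genes.

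Estimated counts were rounded. Tests used edgeR 4.0.16 (quasi-likelihood, two-sided, Benjamini-Hochberg over all genes tested) in R 4.3.3, with a term per lysate, an effect of pulldown per location or genotype, and library totals as scale. Genes needed 64 footprints in the total inputs compared, or a mean of 64 counts. Levels in total inputs used TMM. DESeq2 1.42.0, TMM, other minimums, counts over all exons, library totals without the mitochondrial genome and leaving out each replicate were alternatives. In data simulated for the OMM comparison over 6436 genes, 87.5% of 200 changes of −1 log2 and 100% of changes of −4 were found. For OMM minus ER 78.0% of changes of −1 were found. The changed genes were drawn from all these genes and had no depletion at the ER. The rate for OMM minus ER therefore does not carry over to the members, which were depleted at both. The study takes pulldown and total input from 1 lysate. The deviations of the 2 from their location means correlated across 6454 genes at 0.76, 0.59 and 0.87 for ER, OMM and cytosol. The mask and sequences come from hg38 with GENCODE 44. Percentages divide the pulldown's share of its library by that of the total input, with exact conditional binomial intervals. Library totals ranged from 1025114 to 19539527 footprints and from 38347615 to 100840544 counts.

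The genes named are all members, the other genes of the mitochondrial genome, the listed nuclear copies, the 2 lowest and 2 highest of each list of nuclear genes, and the 5 genes most like the members. The members, lists and tests were chosen with earlier results of these data known.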

Additional observations from a re-analysis of the deposited data

Results flagged for a closer look

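The members MT-CYB, MT-ND5 and MT-CO3 were depleted less at the OMM than at another location by a test of the difference itself, in edgeR at an adjusted p under 0.05. OMM minus ER gave 1.65 for MT-CYB, 1.72 for MT-ND5 and 2.30 for MT-CO3 on the log2 scale. OMM minus cytosol gave 1.49, 1.66 and 1.43. The OMM pulldowns were also the shallowest libraries, with 32 and 137 footprints on the 10 members, and the part of depth was not tested.

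The large mitochondrial ribosomal RNA, MT-RNR2, differed between locations too, in the counts over all exons. Its log2 of pulldown over total input differed by −1.39 for OMM minus cytosol (SE 0.36, edgeR adjusted p = 0.00307). For ER minus cytosol the difference was −1.27 (SE 0.34, edgeR adjusted p = 0.00266). Most genes moved the same way. For OMM minus cytosol 3467 of 8254 genes were lower and 1311 higher, with a median of −0.35. For ER minus cytosol 5497 of 8604 were lower and 1784 higher, with a median of −0.61. OMM minus ER was −0.13 (adjusted p = 0.794).

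Footprints on RNA genes of the mitochondrial genome remained in the files although reads of ribosomal and transfer RNA were removed by the authors. ER total input replicate 1 held 423975 footprints on MT-RNR2, or 2.04% of all footprints in exons, and 4627 on mitochondrial tRNA genes.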

How the results depend on the processing

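Depth limits the OMM values, with 32 and 137 footprints on the members in the pulldowns and 5 of the 10 members under 64 footprints in a total input. Of the values that answer a comparison, 124 kept their value or moved within a set margin, and 11 counts rose and 8 fell beyond it. A lost or gained call can lie within that margin, as does the change from 3 to 2 members in OMM minus ER with TMM. Of the single-gene values, 401 kept direction and side, 22 lost and 9 gained the call and 5 changed sign. The OMM count of 5 lower members became 10 with a minimum of 10 footprints and 10 with a minimum of 1, as more members could be tested. Of all genes, 3335 of 9574 and 3351 of 11228 were lower in these fits. Every member tested at the OMM stayed lower with 1 replicate left out. Members higher in OMM minus ER numbered 3, and 1 with DESeq2, 1 to 3 with 1 replicate of these lines left out and 4 without cytosol replicate 2, which enters the same fit. In OMM minus cytosol they numbered 3, and 1 with DESeq2 and 0 to 4 with 1 replicate left out. Without the term that pairs pulldown and total input of a lysate, a replicate block, both counts were 0; the fits with and without the block made the same calls for members at each location. In ER minus cytosol 0 members were called. With 1 replicate left out 0 to 1 were higher, and 3 were lower without cytosol replicate 1, 1 without ER replicate 2 and 1 with a minimum of 1 footprint. In the total inputs no member was called with every replicate kept. Calls of members appeared only in fits that left 1 cytosol total input. The fitted differences of the members moved with the cytosol replicate left out. For the OMM line minus the cytosol line they ran from −0.038 to 0.54 without cytosol replicate 1 and from −1.49 to −0.80 without cytosol replicate 2. For the ER line minus the cytosol line they ran from 0.61 to 1.20 and from −0.86 to 0.087 in the same order. The 4 nuclear copies lower in RNA-seq became 8 of 8 in each genotype with a minimum of 10 counts. Of all 18687 genes then tested, 7294 were lower in wild-type, 4505 in AKAP1 null and 4510 in LARP4 null cells. In LARP4 null minus wild-type cells 0 copies became 1 with DESeq2 and 0 to 4 with 1 replicate left out. MT-CO1 changed sign in OMM minus ER with TMM, to −0.027. With 1 replicate left out it ran from −0.22 to 0.48 in OMM minus ER and from −0.33 to 0.29 in OMM minus cytosol, and MT-ND1 from −5.76 to 1.76 and from −5.82 to 2.02, the lowest without OMM replicate 2, where the remaining pulldown held 0 footprints. Beyond what the counts of tested genes show, the cause was not tested. Tests of the members in RNA-seq and totals without the mitochondrial genome there were not run, since the counts are 0, and hydropathy was not computed.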

Other observations

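MT-RNR2, the large ribosomal RNA of the mitochondrial ribosome, has 503 unmasked positions and was counted in exons. Its total inputs held 423975 and 3082 footprints in the ER line, 107840 and 3690 in the OMM line and 284081 and 49336 in the cytosol line, so that replicates of a line differed far more than lines. The pulldowns held 50440 and 950, 1377 and 355, and 58763 and 32730. As a percentage of the share in the total input this was 8.34% and 17.5% at the ER, 6.35% and 20.8% at the OMM and 27.8% and 29.1% in the cytosol. The location with the highest share was thus the cytosol for MT-RNR2 and the OMM for the members. The fitted log2 in edgeR was −3.08 at the ER, −3.21 at the OMM and −1.82 in the cytosol, and for MT-RNR1, the small ribosomal RNA, −2.95 in the cytosol, the location where it had 64 footprints in both total inputs. These fits were chosen after seeing the data.

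The mitochondrial tRNA genes together gave 1.89% and 3.98% at the ER, 16.8% and 11.4% at the OMM and 1.32% and 2.17% in the cytosol, with 11 and 30 footprints in the OMM pulldowns. Both OMM lysates lay above the other four, as for the members, while the ER lysates lay above the cytosol lysate of the same number.

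The 3 protein genes of the mitochondrial genome that are no members had fewer footprints. MT-ND4L, a small complex I subunit, had 333 and 48, 49 and 86, and 367 and 49 in the total inputs of the ER, OMM and cytosol lines and 2 and 1, 0 and 1, and 5 and 6 in the pulldowns. MT-ATP6, of the ATP synthase, had at most 156 in a total input and at most 6 in a pulldown. MT-ATP8 had 0 in all 6 pulldowns and at most 105 in a total input.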
